A study of Mus musculus with 2 samples.

Results

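The genes described are 34 mouse genes of the synaptic vesicle and its release machinery, taken by gene symbol from the 45777 genes of a teratoma RNA-seq table. They comprise the membrane fusion SNAREs, the factors that take SNARE complexes apart, complexins, synaptotagmins and Doc2b, vesicle membrane proteins, synapsins and a synuclein, active zone and priming proteins, Rab3a with its effector, and the proteins that retrieve vesicles by endocytosis. Measured values played no part in choosing them, although the choice was made with earlier results of these data known. Teratomas are tumours of mixed tissues that mouse embryonic stem cells (ESCs) form in a host. The study asked how a change of Sox2 at a threonine that can carry O-GlcNAc affects the differentiation of ESCs.

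A synaptic vesicle docks at the active zone, where RIM, Munc13 and large scaffold proteins prepare it for release. A vesicle SNARE (VAMP) then zips onto membrane SNAREs (syntaxin and SNAP-25), complexin holds the complex, and calcium bound to synaptotagmin triggers fusion. NSF and SNAP proteins afterwards separate the SNAREs, and dynamin, amphiphysin and synaptojanin recover the membrane. Neurons express these genes most strongly, endocrine cells use many of them for hormone granules, and most other cells rely on related, broadly expressed paralogs such as SNAP-23 and VAMP3.

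There were 2 libraries of polyA RNA, 1 per group. One came from teratomas of E14, a mouse ESC line with unchanged Sox2, and the other from teratomas of E14-Sox2TA/WT, E14 cells edited with CRISPR-Cas9 and selected as clones grown from single cells, with the T258A change (that threonine to alanine) on 1 Sox2 allele. Cells of both lines were injected under the skin of BALB/c nude mice, 3 mice per group, and teratomas were harvested after 14 days. Whether a library holds RNA from 1 teratoma or several is not stated, RNA of the host's own cells cannot be told apart from that of the graft, and the labels give teratoma as the tissue although their protocol speaks of RNA from a stem cell line. How many edited clones the teratomas came from is not stated.

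The E14 library, called wild-type from here on, had 50529171 reads on genes, and the E14-Sox2TA/WT library, called mutant, had 49030281. Levels are given as the deposited TPM, a transcript abundance scaled by transcript length and to the same sum in every library, so levels may be compared between genes. Mitochondrial transcripts took 5.17% of the TPM of the wild-type library and 9.70% of that of the mutant library. A gene was called lower or higher when its TPM ratio passed 2-fold and either library reached a TPM of 10, the filter used throughout. Pairs of values are given for the wild-type library first and the mutant library second. With 1 library per group there is no replicate check and no p-value. Ranges in parentheses after a fold are exact (Clopper-Pearson) 95% intervals computed from both read counts, which cover counting error only and compare the libraries, not the conditions.

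Nearly the whole release machinery was lower in the mutant library. Of the 34 genes, 26 passed the filter, and 23 of these 26 were called lower, where 18.7% of all 11578 genes past the same filter were called lower. None of the 26 was called higher, against 10.8% of all genes. The 3 that passed the filter without a call were Syt7, Rims2 and Amph, whose TPM was 1.86-fold, 1.84-fold and 1.47-fold lower. The other 8 genes stayed under a TPM of 10 in both libraries, and 7 of them had a TPM ratio past 2-fold in the same direction. All 26 genes past the filter reached a TPM of 10 in the wild-type library, but only 10 did in the mutant library. The rest passed only through the library where they were higher, which fixed their direction. With that TPM asked of both libraries, 9 of those 10 were called lower, and the share of all genes is not given for that setting. Counted at any level, 30 of 34 genes were more than 2-fold lower, against 20.6% of all genes with a read, and 33 of 34 were lower by any amount, against 46.1% of those genes and 52.5% of genes with a TPM of 1 or more in either library. Sv2b was the exception.

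Summed over the 34 genes, the TPM was 1286 in the wild-type library and 313.73 in the mutant library, 4.10-fold lower. Without Rab3a, the most abundant gene in the wild-type library, the sums were 1089 and 294, 3.70-fold lower. On a log2 scale, after adding 1 to each TPM, the median ratio was -1.95 over the 33 genes that reached a TPM of 1, beside -0.06 over all 18558 such genes. All 26 genes past the filter reached a TPM of 10 in the wild-type library, and 10 of them reached it in the mutant library. Because these are bulk libraries, fewer cells of a type and less RNA per cell cannot be told apart.

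**Figure D1:**
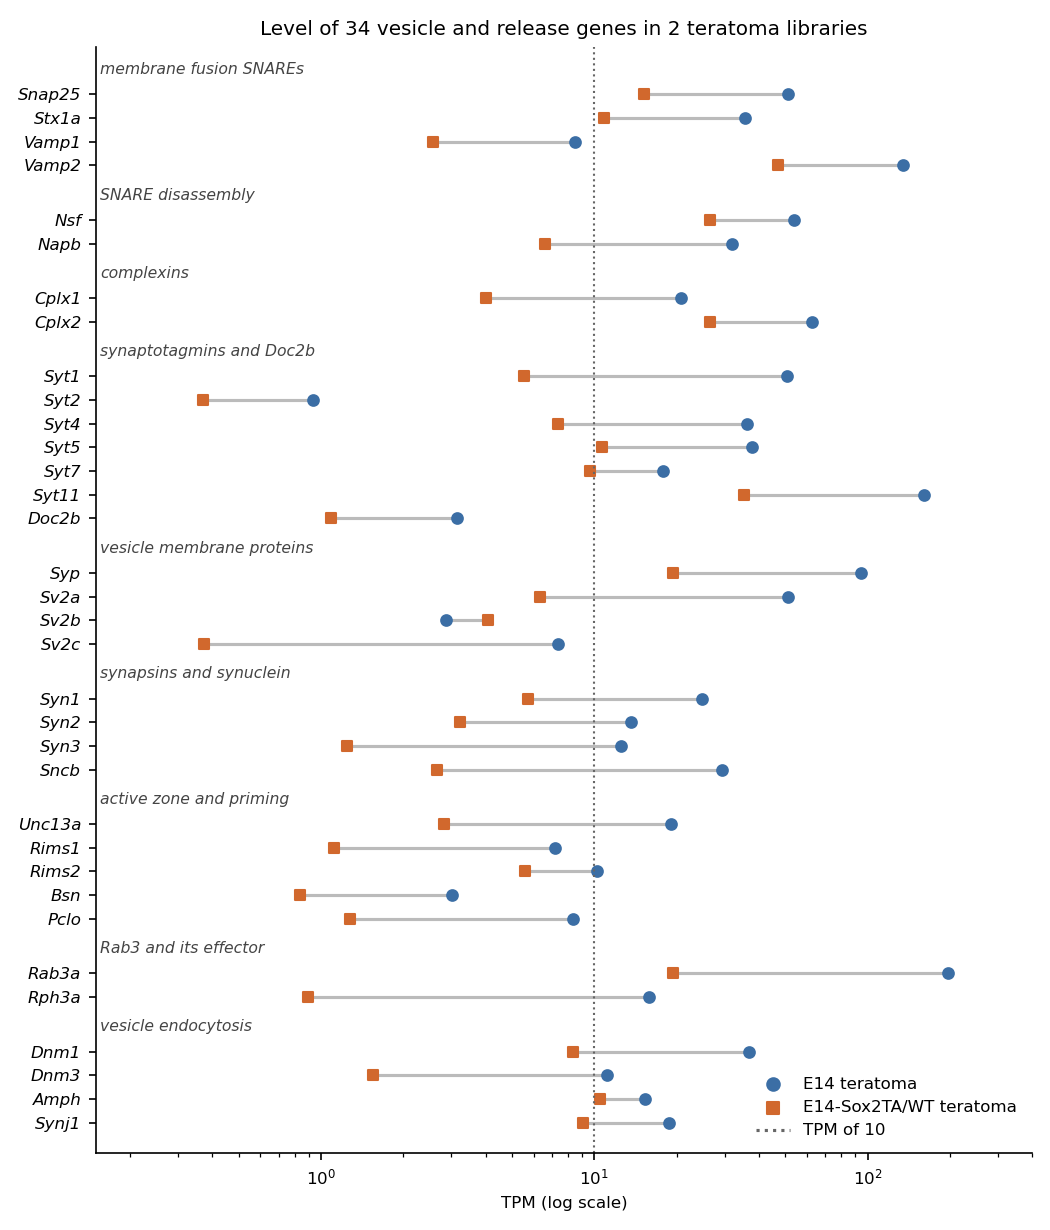
TPM (log scale) of each of the 34 genes in the E14 teratoma library (circles) and the E14-Sox2TA/WT teratoma library (squares), grouped by role, with a dotted line at a TPM of 10. The square lies left of the circle for 33 genes and right of it only for Sv2b.

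The 4 membrane fusion SNAREs were lower in the mutant library by similar folds, and their summed TPM was 3.03-fold lower. Vamp2, the main vesicle SNARE of the forebrain, had 7007 reads and a TPM of 135 in the wild-type library, and 2743 reads and a TPM of 47.2 in the mutant library, 2.85-fold lower (2.73 to 2.98). Snap25, a membrane SNARE anchored by lipid, had a TPM of 51.2 and 15.2, 3.37-fold lower (3.12 to 3.65). Vamp2 was the third most abundant of the 34 genes in the wild-type library and the most abundant in the mutant library. Stx1a, the syntaxin of the presynaptic membrane, had a TPM of 35.6 and 10.9, 3.27-fold lower (2.99 to 3.58). Vamp1, which serves spinal cord and neuromuscular synapses, was under the filter at 8.53 and 2.57, 3.32-fold lower (2.84 to 3.89). The counting intervals of Snap25, Stx1a and Vamp1 overlap one another, and that of Vamp2 ends below those of Snap25 and Stx1a.

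The factors that recycle SNAREs differed from each other. Nsf, the ATPase that pulls spent SNARE complexes apart in every cell, had 4883 and 2673 reads and a TPM of 53.9 and 26.4. Its 2.04-fold lower level (1.95 to 2.14) lay just past the threshold, and the interval includes 2-fold. Napb, the brain form of the SNAP adaptor that brings Nsf to the complex, had 3033 and 753 reads and a TPM of 31.8 and 6.57, 4.84-fold lower (4.47 to 5.25). The complexins, small clamps on the assembled SNAREs, divided in the same way. Cplx1 had a TPM of 20.8 and 4.02, 5.16-fold lower (4.48 to 5.97), and Cplx2 a TPM of 62.7 and 26.4, 2.37-fold lower (2.28 to 2.47). Cplx2 accordingly supplied 75.1% of complexin TPM in the wild-type library and 86.8% in the mutant library.

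The next group holds 6 synaptotagmins, most of them calcium sensors, and Doc2b. Of these 7 genes, 4 were called lower, 1 passed the filter without a call and 2 were under the filter. Syt1, the sensor for fast, synchronous release, had 5815 reads and a TPM of 50.8 in the wild-type library, and 705 reads and a TPM of 5.53 in the mutant library. This was 9.17-fold lower (8.48 to 9.93), the widest gap in the group, with an interval that overlaps no other gene's there. Syt11, a synaptotagmin that does not bind calcium and acts in vesicle retrieval, was the most abundant at 161 and 35.5, 4.53-fold lower (4.38 to 4.68). Syt4, found on dense-core and postsynaptic vesicles, had a TPM of 36.3 and 7.37, 4.92-fold lower (4.55 to 5.33). About 14.5% of its exon bases lie under an antisense gene, and whether reads were counted by strand is not stated. Syt5 had a TPM of 37.7 and 10.7, 3.53-fold lower (3.19 to 3.91).

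Syt7, the slow, high-affinity sensor for asynchronous release and for granule and lysosome exocytosis, differed least in the group. It had 3145 and 1667 reads and a TPM of 17.9 and 9.63, 1.86-fold lower (1.75 to 1.97), and the whole interval lay under 2-fold. Its share of the TPM of the 6 synaptotagmins was 5.89% in the wild-type library and 13.9% in the mutant library, while the share of Syt1 was 16.7% and 8.02%. Doc2b, a soluble calcium sensor for spontaneous release, had 384 and 148 reads and a TPM of 3.14 and 1.09. Syt2, the fast sensor of the hindbrain and spinal cord, was the least abundant of the 34 genes at 0.933 and 0.370, with 162 and 69 reads, and its interval of 1.89-fold to 3.39-fold includes 2-fold.

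The vesicle membrane proteins held both the widest gap and the only gene with a higher level. Syp encodes synaptophysin, the most abundant vesicle membrane protein, and had 5648 and 1291 reads and a TPM of 94.6 and 19.4, 4.89-fold lower (4.599 to 5.20). About 16.8% of its exon bases lie under an antisense gene. The SV2 genes encode transporter-like vesicle glycoproteins. Sv2a, the form present at nearly all synapses, had 4835 and 668 reads and a TPM of 51.2 and 6.33, 8.09-fold lower (7.46 to 8.79). Sv2c, restricted in the brain mainly to the basal ganglia and midbrain, had 757 and 43 reads and a TPM of 7.39 and 0.373, 19.8-fold lower (14.6 to 27.6), the largest fold of the 34 genes, although it was under the filter in both libraries.

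Sv2b, the third form, had 385 reads and a TPM of 2.87 in the wild-type library, and 595 reads and a TPM of 4.07 in the mutant library, 1.42-fold higher (1.25 to 1.62). Its TPM was under 10 in both libraries. With Sv2a and Sv2c lower, Sv2b made up 4.66% of SV2 TPM in the wild-type library and 37.8% in the mutant library, while the summed SV2 TPM was 61.5 and 10.8. Sv2b (NCBI gene 64176) lies on the minus strand at chr7:75114894-75309262 of GRCm38. The 250 bases before its first start site, chr7:75309263-75309512, are shown because Sv2b is the gene that went against the others. They read 5′ to 3′ on the gene's strand, from RefSeq on GRCm38.p6, with each CpG dinucleotide in capitals.
Sv2b: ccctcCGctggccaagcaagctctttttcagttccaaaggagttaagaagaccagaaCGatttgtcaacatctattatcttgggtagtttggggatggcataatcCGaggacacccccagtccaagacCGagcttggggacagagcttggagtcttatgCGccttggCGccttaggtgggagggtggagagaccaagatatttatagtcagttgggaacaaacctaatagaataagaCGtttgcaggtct
These bases hold 7 CpG dinucleotides and are 48.8% G or C.

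The synapsins, which tether vesicles to actin in the reserve pool, were all called lower, and so was Sncb. Syn1 had 1911 and 489 reads and a TPM of 24.9 and 5.71, 4.35-fold lower (3.94 to 4.81), and Syn2 a TPM of 13.7 and 3.21, 4.25-fold lower (3.76 to 4.82). Their intervals almost coincide. Syn3, the synapsin of developing neurons, had 2802 and 285 reads and a TPM of 12.5 and 1.24, 10.1-fold lower (8.90 to 11.4). Syn3 thus made up 24.5% of synapsin TPM in the wild-type library and 12.2% in the mutant library. Its exons share 1733 of 12282 bases with Timp3 on the opposite strand, and Timp3 itself had 6520 and 6395 reads. In all, 14 of the 34 genes share exon bases with another gene, over 10% of them in Syp, Syt4 and Syn3. Sncb, which encodes beta-synuclein of presynaptic terminals, had 963 and 98 reads and a TPM of 29.4 and 2.66, 11.1-fold lower (8.97 to 13.8).

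Syn1 (NCBI gene 20964) lies on the minus strand at chrX:20860511-20920918 of GRCm38. The 250 bases before its start site, chrX:20920919-20921168, are shown because this was the only one of the 26 genes with a RefSeq window that held 2 of the motifs searched. They come from RefSeq on GRCm38.p6, 5′ to 3′ on the gene's strand. Capitals mark TCAGCACC, the left arm of the RE1 element bound by the repressor REST, and TGACGTCA, the CRE bound by CREB.
Syn1: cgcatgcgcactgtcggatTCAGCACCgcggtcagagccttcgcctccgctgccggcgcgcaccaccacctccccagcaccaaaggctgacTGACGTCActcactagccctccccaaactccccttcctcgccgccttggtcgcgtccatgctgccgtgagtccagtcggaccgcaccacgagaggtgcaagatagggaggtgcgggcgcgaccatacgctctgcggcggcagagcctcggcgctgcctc
Counted from the start site, the RE1 arm begins at -231 and the CRE at -159. After the arm and 2 more bases the sequence reads GGTCAG, where the full RE1 element searched below has GGACAG.

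The active zone genes were low in level and unequal in ratio. Unc13a encodes Munc13-1, which primes vesicles by opening syntaxin. It had 4151 and 805 reads and a TPM of 19.1 and 2.81, 6.81-fold lower (6.31 to 7.35). On reads scaled by library total it was 5.004-fold lower, where the transcript length implied by reads per FPKM was 18.2% greater in the mutant library, the largest such shift among the 34 genes. Rims1, which links Rab3 to Munc13 and calcium channels, had a TPM of 7.17 and 1.11, 6.44-fold lower (5.53 to 7.53). Its relative Rims2 had 1836 and 1158 reads and a TPM of 10.3 and 5.58, 1.84-fold lower (1.71 to 1.98). The Rims1 and Rims2 intervals are far apart. Rims2 is a gene of chromosome 15, where the 742 genes with a TPM of 1 or more were higher as a whole (median 0.35 on the log2 scale).

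Pclo and Bsn encode piccolo and bassoon, very large scaffolds of the active zone, and both were under the filter. Pclo had 3601 and 620 reads and a TPM of 8.38 and 1.27, 6.57-fold lower (6.03 to 7.17). Bsn had 1183 and 369 reads and a TPM of 3.01 and 0.834, 3.61-fold lower (3.21 to 4.07). Although only Unc13a was called among the 5 active zone genes, 4 of 5 were more than 2-fold lower and their median log2 ratio was -1.95, as for the 34 genes together. After correction for transcript length, however, their median was -1.12, against -1.81 for the 34 genes. The correction concerned how long a gene's transcripts are, not a shift of length between the libraries, which was 0.80% for Bsn. The log2 ratio of Bsn went from -1.13 to -0.25, that of Pclo from -2.04 to -1.12 and that of Rims2 from -0.78 to -0.32, and 3 of 5 then lay below -1. Across all 18558 genes with a TPM of 1 or more, longer transcripts had lower ratios (Spearman's rho -0.30, a description across genes of the same libraries). Among the 34 genes themselves rho had the opposite sign, at 0.20.

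Rab3a and Rph3a had the lowest log2 ratios of the 34 genes, with 1 added to each TPM, at -3.27 and -3.15. Rab3a, the small GTPase that marks synaptic vesicles and recruits effectors, had 6908 reads and a TPM of 197 in the wild-type library, and 772 reads and a TPM of 19.5 in the mutant library, 10.1-fold lower (9.37 to 10.9). It was the most abundant of the genes in the wild-type library, with 15.3% of their summed TPM, and the fifth most abundant in the mutant library, with 6.21%. Rph3a, which encodes the Rab3 effector rabphilin, had 1596 and 106 reads and a TPM of 15.9 and 0.899, 17.7-fold lower (14.5 to 21.7). The Rph3a interval lies wholly above that of Rab3a and reaches into that of Sv2c only.

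Rab3a (NCBI gene 19339) lies on the plus strand at chr8:70754703-70758608 of GRCm38. Genes of chromosome 8 as a whole were lower, with a median log2 ratio of -0.48 over 926 genes, and Unc13a lies there too. The 250 bases before the Rab3a start site, chr8:70754453-70754702, are shown as the counterpart of Sv2b, again from RefSeq on GRCm38.p6, 5′ to 3′ on the gene's strand, with each CpG in capitals.
Rab3a: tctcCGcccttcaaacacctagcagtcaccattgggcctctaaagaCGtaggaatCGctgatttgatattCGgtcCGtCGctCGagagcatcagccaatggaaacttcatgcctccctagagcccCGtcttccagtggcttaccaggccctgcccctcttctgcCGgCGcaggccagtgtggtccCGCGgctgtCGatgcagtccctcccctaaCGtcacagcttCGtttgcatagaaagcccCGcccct
They hold 16 CpG dinucleotides and are 58.8% G or C.

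The endocytic genes ranged from the smallest difference past the filter to a 7.18-fold one. Amph encodes amphiphysin, which bends membrane and gathers dynamin. It had 1281 and 958 reads and a TPM of 15.4 and 10.5, 1.47-fold lower (1.35 to 1.597), and ranked 22 by TPM among the 34 genes in the wild-type library and 10 in the mutant library. Synj1, the lipid phosphatase that uncoats vesicles, had 3484 and 1824 reads and a TPM of 18.8 and 9.07, 2.07-fold lower (1.96 to 2.197), an interval that includes 2-fold. Dynamin pinches vesicles from the membrane, and both neuronal dynamins were called lower. Dnm1 had a TPM of 36.8 and 8.33, 4.42-fold lower (4.09 to 4.77). Dnm3 had a TPM of 11.2 and 1.55, 7.18-fold lower (6.36 to 8.13).

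**Figure D2:**
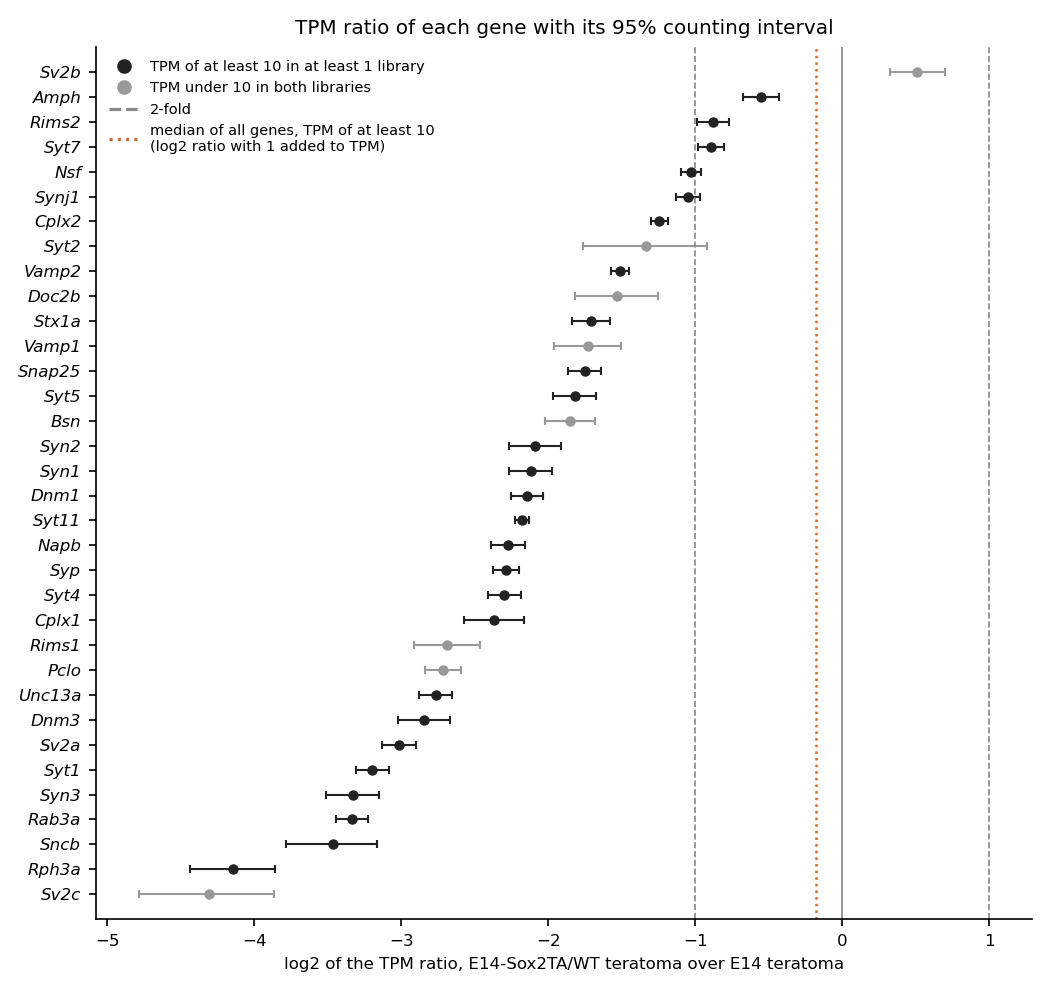
Log2 of the TPM ratio, E14-Sox2TA/WT over E14 teratoma library, for each of the 34 genes in order of ratio, with 95% counting intervals as bars. Black points passed the TPM filter, grey points did not, dashed lines mark 2-fold and the dotted line marks the median of all genes past the filter, -0.18. Intervals of Nsf, Synj1 and Syt2 cross the 2-fold line, and Sv2b alone lies right of 0.

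Nsf, at 2.04-fold, and Synj1, at 2.07-fold, lay just inside the threshold, and Syt7 and Rims2 just outside it. For 21 of the 26 genes past the filter the whole counting interval was below a ratio of 1/2, against 16.5% of all genes. On FPKM, the authors' other normalized unit, 21 genes were called lower, against 14.3% of all genes. In each of 6 scalings (TPM, FPKM, library totals, TMM and median-of-ratios factors, and TPM without mitochondrial genes), 33 of 34 genes were lower, and 21 of the genes past the filter were more than 2-fold lower. After correction for transcript length 20 were, with Nsf, Cplx2 and Synj1 no longer past 2-fold. Among all genes, 2167 were called lower on TPM and 1979 after that correction. Leaving out the 5 genes on chromosomes 8, 15 and X (Unc13a, Rab3a, Rims2, Syp and Syn1), 19 of 21 genes past the filter were called lower. The share of all genes off these chromosomes is not given.

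Ranked by role, the Rab3 pair differed most between the libraries, with a summed TPM 10.4-fold lower. The synapsins with Sncb followed at 6.27-fold, the vesicle membrane proteins at 5.18-fold, the synaptotagmins with Doc2b at 4.38-fold (4.23-fold without Syt11, their most abundant gene) and the active zone genes at 4.13-fold. The SNAREs at 3.03-fold, the endocytic genes at 2.79-fold, the complexins at 2.74-fold and the disassembly factors at 2.60-fold differed least.

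A subset of 11 genes was set beside a paralog that does a like task in other cells. Most of these paralogs are broadly expressed. Unc13d, Rph3al and Rab3d instead serve mainly blood, endocrine or exocrine cells, and were under the filter in both libraries. The paralogs did not share the lower levels. Of the 11 paralogs, 7 were higher and 4 lower in the mutant library (8 and 3 on FPKM and on library totals, where Rab3d turned), and of the 7 paralogs past the filter none was called in either direction. Their median log2 ratio was 0.26, and the median of the 11 release genes was -2.02. In all 11 pairs the release gene was lower relative to its paralog, with a median difference of log2 ratios of -2.32, from -0.27 for Amph and Bin1 to -3.61 for Unc13a and Unc13d. Because both genes of a pair are read in the same library, their read quotient does not depend on how libraries are scaled. It takes no account of transcript length, however, and the implied length shifted most among the paralogs for Synj2 (-36.2%) and Unc13d (-16.5%). On TPM the quotient of Synj1 over Synj2 was 13.6 and 1.79, and that of Unc13a over Unc13d 57.1 and 1.35, wider falls than on reads.

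Snap23, the SNAP-25 relative used for secretion outside neurons, had a TPM of 19.0 in the wild-type library and 30.6 in the mutant library. The read quotient of Snap25 over Snap23 was 5.62-fold lower (5.05 to 6.26, Woolf 95% interval, as for the quotients that follow). Snap25 made up 73.0% of the Snap25 and Snap23 TPM in the wild-type library and 33.1% in the other. The Vamp family had the same pattern. Vamp3, the VAMP of recycling endosomes, had a TPM of 55.8 and 96.0, the quotient of Vamp2 over Vamp3 was 4.91-fold lower (4.61 to 5.23), and Vamp2 made up 67.7% and 32.4% of the family. Stx4a, the plasma membrane syntaxin of many cells, had a TPM of 32.8 and 37.9, and the quotient of Stx1a over it was 3.85-fold lower (3.45 to 4.30).

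**Figure D3:**
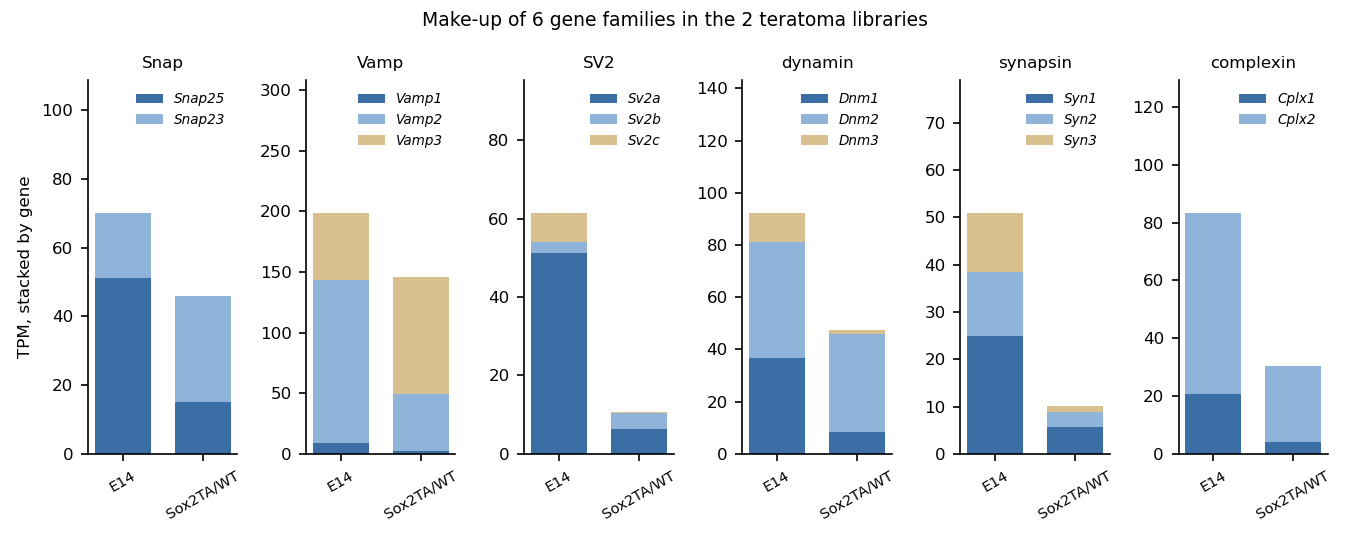
TPM of each gene, stacked within 6 gene families, in the E14 and the E14-Sox2TA/WT teratoma library. In the Snap, Vamp and dynamin families the broadly expressed gene (Snap23, Vamp3, Dnm2) is the larger part of the right bar, and in the SV2 family the share of Sv2b is larger in the right bar.

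Napa, the SNAP adaptor of every cell, was lower too, at 124 and 82.0, and the quotient of Napb over Napa was 3.03-fold lower (2.77 to 3.30). Dnm2, the general dynamin, had a TPM of 44.4 and 37.5. The quotient of Dnm1 over Dnm2 was 3.62-fold lower (3.31 to 3.95), and Dnm2 made up 48.1% of dynamin TPM in the wild-type library and 79.1% in the mutant library. The quotient of Synj1 over Synj2 was 4.98-fold lower (4.34 to 5.71), with Synj2 at a TPM of 1.38 and 5.06. Amph and Bin1, a membrane-bending relative found in muscle and many tissues, were the closest pair. Bin1 had a TPM of 60.1 and 50.7, and the quotient was 1.24-fold lower (1.13 to 1.37).

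The widest quotients belonged to Unc13a, Rph3a, Rab3a and Syp. Unc13d, the Munc13 of blood and secretory cells, had only 37 and 215 reads, and the quotient of Unc13a over it was 29.96-fold lower (21.0 to 42.8). Rph3al, an effector of Rab3 and Rab27 in endocrine cells, had a TPM of 5.55 and 6.87, and the quotient of Rph3a over it was 22.3-fold lower (17.4 to 28.5). Rab3d, the Rab3 of exocrine granules, had nearly the same level in both libraries, at 9.56 and 9.44 on TPM and 4.10 and 4.65 on FPKM. The quotient of Rab3a over Rab3d was 9.97-fold lower (8.87 to 11.2). Sypl, a synaptophysin relative of many tissues, had a TPM of 20.2 and 33.8, and the quotient of Syp over Sypl was 8.24-fold lower (7.61 to 8.92). The release gene exceeded its paralog in TPM in 8 of 11 pairs in the wild-type library and in 3 of 11 in the mutant library, those with Rab3d, Synj2 and Unc13d.

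**Figure D4:**
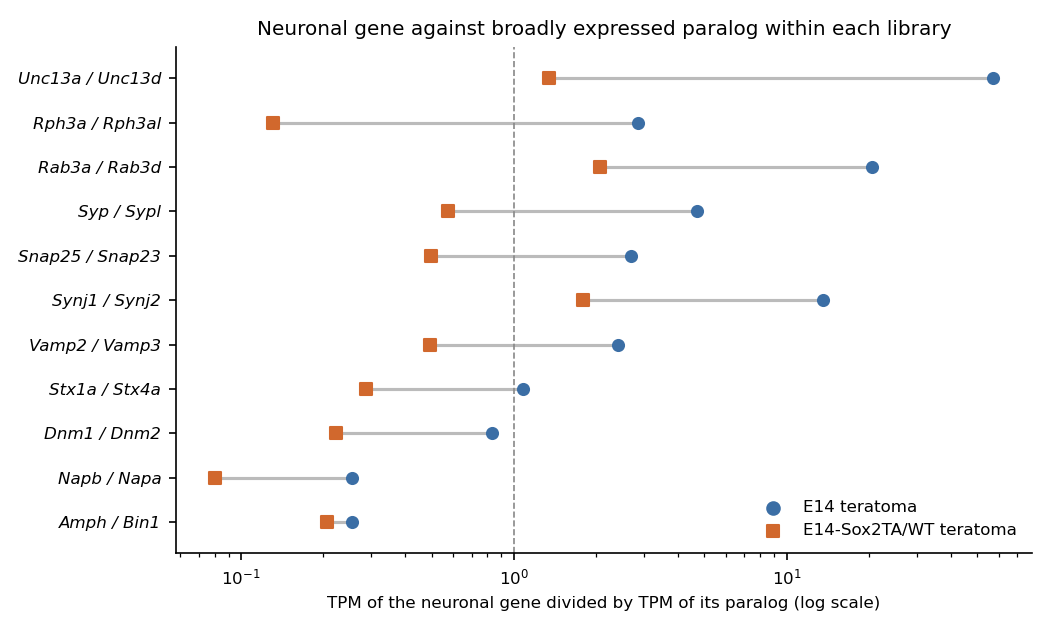
TPM of each release gene divided by the TPM of its paralog (log scale) in the E14 (circles) and the E14-Sox2TA/WT (squares) teratoma library, with a dashed line where both are equal. All 11 squares lie left of their circles, and 8 circles but 3 squares lie right of the line.

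A list of 50 other genes of release and recycling showed the same direction. It was assembled by hand without use of measured values, although earlier results of these data were known. Over the whole list the median log2 ratio was -1.05, nearer 0 than that of the 34 genes. Past the filter the medians were -1.92 for this list and -2.07 for the 34 genes. Those 2 values are not a like comparison of the lists, since genes can pass the filter only through the library where they are higher. Of the 30 past the filter, 24 were called lower and none higher, against 18.7% and 10.8% of all genes past the filter. Over all 50, 44 were lower and 6 higher (43 and 7 on FPKM, 46 and 4 on library totals), and 31 were more than 2-fold lower. Of all genes with a read, 46.1% were lower and 20.6% were more than 2-fold lower. Of the 2 more than 2-fold higher, Syt12 and Cadps2, both were under the filter. Among the large gaps past the filter were those of Atp6v1g2, a neuronal subunit of the proton pump that fills vesicles, and Svop. Atp6v1g2 had 3180 and 171 reads and a TPM of 88.1 and 4.22, 20.9-fold lower (17.9 to 24.5). Svop, an SV2-related vesicle protein, had a TPM of 29.6 and 4.10, 7.24-fold lower (6.46 to 8.12).

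The most abundant of these genes differed less. Tprgl, a presynaptic regulator of release probability, had a TPM of 109.5 and 74.7, 1.47-fold lower, and Dnajc5, the vesicle chaperone also known as cysteine string protein, a TPM of 102 and 52.2, 1.94-fold lower (1.88 to 2.005). At the other end of the list past the filter were Itsn1, an endocytic scaffold, at 38.2 and 41.5, Syngr1, a vesicle protein related to synaptophysin, at 20.1 and 21.2, and Unc13b, the Munc13-2 gene, at 18.1 and 12.2. The reads of Itsn1 were 7317 and 6387 and those of Syngr1 1706 and 949, fewer in the mutant library although the TPM was not. For both genes the transcript length implied by reads per FPKM was shorter there, with a shift of -28.0% for Itsn1 and -52.7% for Syngr1.

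The levels of the 34 genes were set beside markers of neurons and of other cell types. All 14 neuron markers were lower and 13 of them were called. Their log2 ratios had a median of -2.27, and their summed TPM was 4091 and 676, 6.05-fold lower. The most abundant, Tubb3, had a TPM of 1722 and 170.28, and the marker without a call was the neurofilament gene Nefm, at 30.9 and 24.5. Without Tubb3 the sum was 4.69-fold lower. Of the 34 genes, 8 had a lower log2 ratio than the neuron marker median (Rab3a, Rph3a, Sncb, Sv2a, Sv2c, Syn3, Syt1 and Unc13a) and 26 did not. This count rests on ratios with 1 added to each TPM, which shrinks those of genes of low TPM. On plain TPM ratios the middle neuron markers were 5.07-fold and 5.66-fold lower. There, Rims1, Pclo and Dnm3 also lay beyond the neuron marker median, at 6.44-fold, 6.57-fold and 7.18-fold lower. The summed TPM of the 34 genes was 31.4% of that of the neuron markers in the wild-type library and 46.4% in the mutant library.

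Endocrine cells also carry release genes, and 8 of 13 endocrine markers were called lower, with a summed TPM of 1196 and 279.6 for the list. Bulk libraries cannot show whether the reads of these 8 came from endocrine cells or from neurons. Cpe, the most abundant, had a TPM of 625 and 161. Another 3 markers were higher, all under the filter. These were Pcsk1, with 119 and 170 reads, the hormone gene Gcg, with 3 and 32, and Ppy, with 0 and 3. Ins1 and Ins2 had no reads in either library. All 10 glial markers were lower, 7 of them called, with a summed TPM of 654 and 228 and Gfap at 137 and 76.4. Of 8 neural progenitor markers, 7 were lower and 4 called, with a summed TPM of 3159.8 and 1057.5 and Fabp7 at 2497 and 708. The neural lists thus all had lower sums in the mutant library. Of 8 skeletal muscle markers, 6 were lower and 2 called, with a summed TPM of 316 and 183 and Mylpf at 185 and 112. Cartilage markers were mixed. By any amount, 4 of 6 were higher (5 on FPKM and on library totals, with Col9a1), but 0 were called higher. Col2a1 had a TPM of 58.0 and 74.8, and Matn1 had 0 and 46 reads (a TPM of 0 and 0.845). Sox9 was called lower, at a TPM of 44.1 and 16.9, and the summed TPM of the list was 117 and 108. All 7 gut and visceral endoderm markers were higher, 3 of them called, with a summed TPM of 105 and 390.28. Among them, Afp had a TPM of 0.614 and 151, and Cdx2 had 0 and 165 reads. The part of these cell types in the levels of the release genes was not tested.

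**Figure D5:**
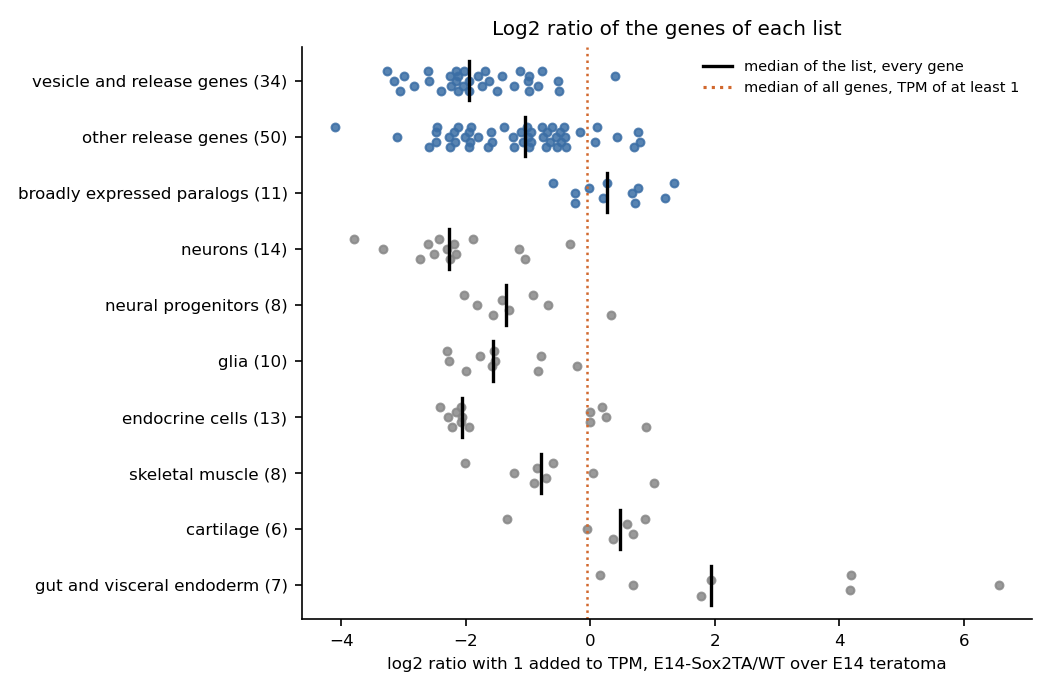
Log2 ratio, with 1 added to each TPM, E14-Sox2TA/WT over E14 teratoma library, of every gene in 10 lists (number of genes in parentheses), with a black line at the median of each list and a dotted line at the median of all genes, -0.06. The medians of the neuron markers, the endocrine markers and the 34 release genes lie furthest left, at -2.27, -2.06 and -1.95, the paralogs straddle 0 and the endoderm markers lie right of it.

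The start sites of the genes were then compared in sequence. RefSeq windows on GRCm38.p6, from 250 bases before to 50 after a start site, were found for 26 of the 34 genes, in 36 windows. In the most upstream window of each gene, G and C made up a median of 61.7% and the CpG count had a median of 19, from 7 in Rph3a to 38. Genes past the TPM filter had a median of 61.3% and 21 CpG dinucleotides over 8784 windows, and all genes had 52.7% and 7 over 27025 windows. Sv2b, with 10 CpG dinucleotides in its window, lay within their range, with Cplx2 at 9 and Dnm3 at 12.

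Motifs were searched as letters on both strands. The full RE1 element, searched as TCAGCACC, then any 2 bases, then GGACAG, was in 8 of 32851 windows (0.0244%) and in none of the 36. Only exact letters were counted, so the stretch in Syn1, with GGTCAG in place of GGACAG, was not. Its left arm alone, TCAGCACC, which the full element contains, was in 2 of the 36 (Syn1 and, on the reverse strand after the start site, Unc13a), in 3 of 10 paralog windows and in 1.65% of all windows. The CRE, TGACGTCA, was in 1 of the 36 (Syn1), in 1 of 10 paralog windows and in 1.79% of all windows. The Sox site CATTGTT was in none of the 36 and in 3.78% of all windows. A match is a description of the letters and not a bound site, and RE1 elements further from the start site were not searched.

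Transcript length entered the TPM values of some genes. The length implied by reads per FPKM was compared over 2610 genes with 1 annotated transcript and at least 500 reads in both libraries. Leaving out the extreme tails, it differed between the libraries by between -0.11% and 0.11%. For the 6 release genes with 1 transcript (Vamp2, Nsf, Cplx1, Doc2b, Syp and Sv2a) the shift was between -0.13% and 0.33%, and for the 28 with several it was between -11.8% and 18.2%. Beyond 10% were Unc13a and Syt7, and Syt7 was 1.83-fold lower on reads scaled by library total and 1.86-fold on TPM. Among the genes whose length was the same in both libraries, the range still ran from Nsf at 2.04-fold to Sv2a at 8.09-fold lower.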

How the data were processed

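RNA-seq of 2 teratoma libraries, 1 per group, was used. Per the submitters' processing notes, bcl2fastq 2.20.0, Trimmomatic, HISAT2 2.1.0 and StringTie 2.1.3b were used, with builds hg19 and mm10 listed without a role. The role and settings of each tool and the strand of counting are not given in the sources used here. The authors deposited raw read counts per gene, FPKM (counts per length of transcript and per library) and TPM (rescaled to a fixed sum per library) for 45777 mm10 genes. Totals were 50529171 and 49030281 reads, and intervals cover counting error only.

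TPM ratios were computed per gene. Calls followed the rule of the study's methods, a fold change above 2 where either library reached a TPM of 10. Log2 ratios used 1 added to each TPM, and list medians used genes with a TPM of at least 1. Intervals were 95% Clopper-Pearson, or Woolf for gene pairs. No test was run, since each group has 1 library. The 34 genes, the lists and the rules were chosen with earlier results of these data known. All 34 genes and all paralogs were named, in the list of other release genes the 3 most abundant and the 3 with the largest rise and fall past the filter, and in each marker list the most abundant gene. One gene that this rule selects is not reported here. Nefm, Gcg, Pcsk1, Ppy, Ins1, Ins2, Matn1, Sox9, Cdx2, Col9a1, Syt12, Cadps2 and Timp3 were named after their values were seen. Alternatives covered the pseudocount, filter, fold, scaling (edgeR 4.0.16 TMM and DESeq2 1.42.0 median-of-ratios factors only), transcript length and chromosomes. The 45679 genes matched to RefSeq by identifier took GRCm38 positions. Exon overlaps were read from the GENCODE annotation of GRCm38. Python 3.11.15, pandas 2.3.3, scipy 1.17.1 and R 4.3.3 were used, and the scripts were tested on simulated data.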

Additional observations from a re-analysis of the deposited data

How the results depend on the processing

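The number of genes called lower, 23, was 21 on FPKM and on library totals, 23 with TMM factors, 22 with median-of-ratios factors, 21 without mitochondrial genes and 20 after length correction. It was 9 when a TPM of at least 10 was asked of both libraries, since 10 of the genes reach that level in the E14-Sox2TA/WT library. With the whole counting interval past 2-fold, an alternative chosen after seeing the data, it was 21. No gene was called higher in any of these. The median log2 ratio of the 34 genes, -1.95, was -2.13 with 0.1 and -1.42 with 5 added to each TPM, -1.50 on FPKM, -1.82 on library totals and -1.81 after length correction. That of the other release genes, -1.05, was -1.24 and -0.79 with 0.1 and 5 added, -1.92 past the TPM filter of 10 and -0.80 on FPKM. The median difference within pairs, -2.32, was -1.99 with 5 added. The cause of these shifts, other than the pseudocount and filter themselves, was not tested. No direction reversed for any of the 34 genes. Among all genes, 2167 were lower and 1253 higher on TPM (63.4% of the calls lower), 1655 and 1583 on FPKM (51.1%), and 1634 and 1578 on library totals (50.9%), and the median log2 ratio of all genes past the filter was -0.18 on TPM and 0.01 on FPKM and on library totals. Of all genes, 1967 were lower with TMM factors, 1952 with median-of-ratios factors, 1973 without mitochondrial genes and 1979 after length correction. No paired analysis was possible because each group holds a single library, and for the same reason no library could be left out. Genes under about 100 reads in a library, such as Sv2c, Sncb and Syt2, have the widest counting intervals.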
